A study of Rattus norvegicus with 44 samples.

Results

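The genes described here are 9 rat genes of the NRF2 antioxidant programme: Nqo1, Txnrd1, Srxn1, Prdx1, Pgd, Tkt, Taldo1 and Me1, which belong to thioredoxin and NADPH metabolism, and Sqstm1, which encodes an autophagy receptor. They are 9 of the 14863 genes that the annotation of the array names. Their probe sets were those whose annotation names exactly 1 of the 9, which held for 20 of the 31099 probe sets on the array. Of these, 16 are described, and 13 of the 16 passed a filter on low values, at least 1 for each gene. The 3 that did not pass, 1 of Srxn1 and 2 of Sqstm1, were dim in every condition, and none was called at any exposure without the filter (lowest adjusted p = 0.25 in limma). The other 4 name Pgd together with Cenps, Kif1b and Cort and were not taken as a measure of Pgd. The Prdx1 probe set also names Prdx1l1, but the accession it was designed from belongs to Prdx1.

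The cells were H4-II-E-C3, an established line from a rat hepatoma, exposed to a metal salt for 24 h. The exposures were NiCl2 (Nickel 40 µM, 140 µM and 400 µM), Na2Cr2O7 (Chromium 0.275 µM, 1 µM and 10 µM) and CdCl2 (Cadmium 0.2 µM, 0.55 µM and 1.2 µM), set against untreated control cells of the same line. The labels give 4 biological replicates of each of the 9 exposures and 8 control arrays, 2 for each replicate number, or 44 arrays in all. The study set the 3 concentrations of each metal by cell death, so the metals were not matched in molarity, and a single tumour line stands for the liver.

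NRF2, encoded by Nfe2l2, is a transcription factor that KEAP1 holds for degradation in resting cells. Electrophiles and oxidants modify cysteines of KEAP1, after which NRF2 accumulates, pairs with a small MAF protein and binds antioxidant response elements in its target genes. Among these targets, the thioredoxin branch reduces oxidised protein thiols with electrons from NADPH, while the oxidative branch of the pentose phosphate pathway and malic enzyme are known for making that NADPH in liver cells. The non-oxidative branch returns pentose phosphates to glycolysis.

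To show the DNA in front of these genes, promoters (250 bases before to 50 bases after the gene start) were taken from RefSeq on build GRCr8. There were 10 promoters for the 9 genes, because 2 starts of Txnrd1 were used. The windows of Txnrd1 and Tkt lie inside the annotated span of each gene, so its outermost start was not searched. They were searched on both strands for the core of the antioxidant response element, TGACNNNGC, and for an AP-1 site, TGANTCA. The first occurs in 12.1% and the second in 7.33% of all 33465 rat promoters of that length. The element core was found in 3 genes (Txnrd1, Prdx1 and Me1) and the AP-1 letters in 3 (Srxn1, Prdx1 and Me1). The 4 promoters that hold a match are shown because they carry the letters in question, and each reads 5′ to 3′ on the strand of its gene. Capitals mark the element core in Txnrd1, Prdx1 and Me1, and the AP-1 letters in Srxn1.
Txnrd1 (chr7:22755855-22756154, minus strand): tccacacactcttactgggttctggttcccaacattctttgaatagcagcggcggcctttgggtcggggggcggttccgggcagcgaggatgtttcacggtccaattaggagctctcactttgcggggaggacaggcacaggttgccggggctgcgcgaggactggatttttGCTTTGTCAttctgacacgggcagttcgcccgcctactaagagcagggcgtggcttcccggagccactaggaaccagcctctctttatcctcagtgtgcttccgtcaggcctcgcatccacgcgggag
Prdx1 (chr5:135383656-135383955, plus strand): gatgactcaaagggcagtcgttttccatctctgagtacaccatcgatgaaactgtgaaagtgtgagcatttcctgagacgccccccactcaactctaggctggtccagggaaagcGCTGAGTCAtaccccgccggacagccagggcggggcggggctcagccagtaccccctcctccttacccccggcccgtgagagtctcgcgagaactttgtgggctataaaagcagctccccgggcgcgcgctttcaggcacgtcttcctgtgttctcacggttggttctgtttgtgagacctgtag
Me1 (chr8:96540195-96540494, minus strand): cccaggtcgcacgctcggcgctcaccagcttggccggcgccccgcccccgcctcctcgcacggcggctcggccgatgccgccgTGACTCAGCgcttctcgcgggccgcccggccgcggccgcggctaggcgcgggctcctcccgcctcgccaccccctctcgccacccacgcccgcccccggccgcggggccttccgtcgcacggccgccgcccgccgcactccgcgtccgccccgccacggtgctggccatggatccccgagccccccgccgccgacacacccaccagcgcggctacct
Srxn1 (chr3:161064562-161064861, plus strand): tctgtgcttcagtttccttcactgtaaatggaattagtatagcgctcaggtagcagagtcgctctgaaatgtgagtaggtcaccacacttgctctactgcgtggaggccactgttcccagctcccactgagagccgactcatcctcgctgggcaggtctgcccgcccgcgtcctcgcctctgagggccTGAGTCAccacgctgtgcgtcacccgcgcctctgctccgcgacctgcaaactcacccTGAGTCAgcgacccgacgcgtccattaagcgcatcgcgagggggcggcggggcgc

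In Txnrd1 and Prdx1 the element core lies on the opposite strand. Its match begins at position -78 of Txnrd1 and at -135 of Prdx1 relative to the start used for that promoter. The match in Me1 begins at -167 on the strand of the gene. In Me1 and Prdx1 the core reads TGACTCAGC, which contains an AP-1 site, so these matches of the 2 motifs overlap. Srxn1 has the AP-1 letters at -62 and -5. A match is a string of letters and not a measured binding site, and the 5 genes without one were searched only in this window.

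The order of the arrays has to be stated before any value. Under the labels as deposited, 22 of the 44 columns of the value table carry another condition than under the order used here, in which the 4 titles of repeated microarrays stand at the end. By labelled replicate, 0 of 11 columns move in replicate 1, 2 in replicate 2, 10 in replicate 3 and 10 in replicate 4. The order was found from values of these same arrays: under it the mean differences from control lie within 7.5e-06 log2 units of those the study tabulates over 992 probe sets, while under the labels as given they differ by a median of 0.164 and by up to 4.32. All nickel and chromium arrays of replicates 1 and 2 have the same condition in both orders. With the labels as given, 0 of the 13 member probe sets were called at any of the 9 exposures in limma (between 0 and 11 had an unadjusted p under 0.05). The count over all tested probe sets is not given for this fit, so it does not show whether members lost more calls than others. With the labels as given but replicates 1 and 2 only, 2 members were called higher at Nickel 140 µM, 7 higher and 1 lower (Nqo1) at Nickel 400 µM, 9 higher at Chromium 10 µM and 0 at each cadmium exposure. Of all 15521 tested probe sets, 234, 7555 and 5422 were called at the first 3 of these exposures and 0 at the cadmium ones. Values from replicates 1 and 2, in the order used here, are therefore given beside the results at the high concentrations. For cadmium this fit still rests on the order, since 2 cadmium arrays of replicate 2 move.

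Some arrays were less like the others of their condition. The median R2 was 0.9026 for Nickel 400 µM replicate 1, 0.9484 for replicates 2 and 3 of the same exposure, and 0.9049, 0.9042, 0.9316 and 0.9489 for the 4 repeated arrays, which are Nickel 400 µM replicate 4, Chromium 0.275 µM replicate 4, Cadmium 0.55 µM replicate 2 and Nickel 140 µM replicate 4. The whole range was 0.9026 to 0.9755. Of the hepatocyte markers, Alb averaged 14.5, Ttr 11.6 and Afp 9.25 log2 units over all arrays, while Apoa1 (5.58) and Apoa2 (5.31) were at the level of dim probe sets. The 8 measured markers of leukocytes, endothelium and fibroblasts averaged 4.61 to 6.46.

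A probe set is called higher or lower in an exposure where its contrast with control in limma has an adjusted p of at most 0.05, over the 15521 probe sets that passed the filter. At Chromium 10 µM, 11 of the 13 member probe sets, from 8 of the 9 genes, were called higher, against 23.0% of all tested probe sets (19.5% were called lower, and no member). At Cadmium 1.2 µM, 9 of 13 (6 genes) were called higher, against 23.8% of all, with no member among the 14.0% called lower. At Nickel 400 µM, 7 of 13 (4 genes) were called higher, against 23.4% of all, with no member among the 16.7% called lower. The share of members called was thus 84.6%, 69.2% and 53.8% at these 3 exposures. Txnrd1 and Sqstm1 were called higher at the high concentration of all 3 metals by both of their probe sets, and Taldo1 by its only one.

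At the middle concentrations, 5 of 13 (Txnrd1, Me1 and Sqstm1) were called higher at Nickel 140 µM, where 2.53% of all probe sets were called higher and 0.754% lower. At Chromium 1 µM no member was called, and only 0.0322% of all probe sets were called higher and 0.0193% lower. At Cadmium 0.55 µM, 8 of 13 (7 genes, all but Prdx1 and Tkt) were called higher, where 8.38% of all were called higher and 2.30% lower. At the low concentrations, no member was called at Nickel 40 µM (0% of all in either direction) or Chromium 0.275 µM (0% in either direction), and 2 were called at Cadmium 0.2 µM, where 0.161% of all were called higher and 0.316% lower. At an unadjusted p under 0.05 the counts of members higher in limma were 9 at Nickel 40 µM, 10 at Chromium 0.275 µM and 11 at Chromium 1 µM, and 0 members were lower, where 597, 1442 and 1280 of the 15521 probe sets passed in either direction. These lower-concentration counts moved with single replicates: leaving out each in turn gave 2 to 3 at Nickel 140 µM and 0 (without replicate 3 or 4) to 6 (without replicate 2) at Cadmium 0.2 µM. The count at Cadmium 0.55 µM ranged from 1 (without replicate 3) to 10, and was 5 without replicate 4. For these refits no count over all tested probe sets is given, so they do not show whether members moved more than others. Without the 4 repeated arrays, 7 members were called at Chromium 1 µM and 8 at Cadmium 0.2 µM, against 59 and 401 of the 15521 probe sets.

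Across the 13 probe sets the median log2 change was 0.24, 0.32 and 0.25 at 40, 140 and 400 µM nickel, 0.25, 0.30 and 0.64 at 0.275, 1 and 10 µM chromium, and 0.31, 0.25 and 0.44 at the rising concentrations of cadmium. The median over all tested probe sets lay between 0.0026 and 0.0412 in these 9 comparisons. Each of the 13 had a change above 0 at 7 of the 9 exposures, and 12 did at Chromium 10 µM and Cadmium 1.2 µM. All 9 comparisons use the same 8 control arrays, so they are not separate evidence of direction. Under the rule of the study's methods, a false discovery rate of at most 0.001 for concentration and a change of 1.8-fold, 3 of the 13 passed in nickel (both Txnrd1 probe sets and the second of Sqstm1), 3 in chromium (Nqo1, Taldo1 and the second of Sqstm1) and 1 in cadmium (the second of Sqstm1), against 1.95%, 2.64% and 1.50% of all probe sets.

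**Figure D1:**
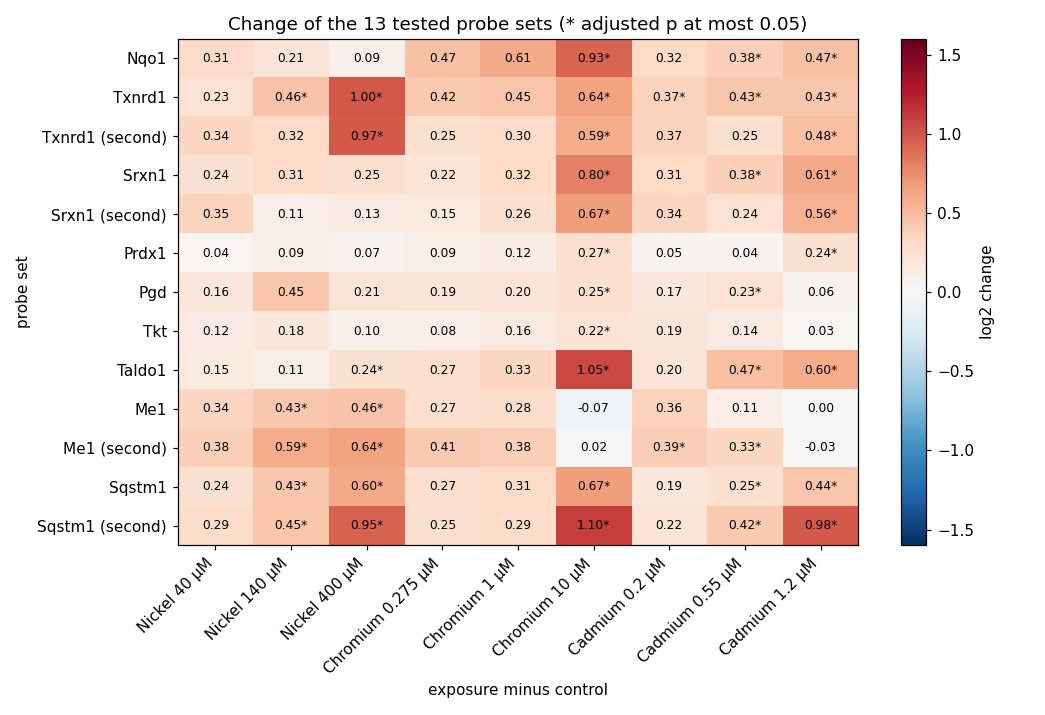
Colour shows the log2 change against control of each of the 13 tested probe sets (down the page) at each of the 9 exposures (across), and an asterisk marks an adjusted p of at most 0.05. The columns of the 3 high concentrations hold 7, 11 and 9 asterisks for nickel, chromium and cadmium, and the columns of Nickel 40 µM, Chromium 0.275 µM and Chromium 1 µM hold 0.

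Nqo1 encodes NAD(P)H quinone oxidoreductase, which reduces quinones without forming radicals and is a standard readout of NRF2. On the log2 scale of the array it was 11.44, 11.42, 11.87 and 11.81 in the 4 Chromium 10 µM replicates, and 10.39, 10.71 and 10.87 as the lowest, median and highest of the 8 control arrays. All 4 chromium arrays lay above every control. The means were 11.63 ± 0.238 (SD, n = 4) against 10.71 ± 0.151 (SD, n = 8), and the log2 change of 0.93 (SE 0.125) was called in limma (adjusted p = 6.3e-05). Cadmium 1.2 µM gave 10.96, 11.26, 11.34 and 11.14, again above every control, with a change of 0.47 (SE 0.076, adjusted p = 0.00037 in limma). Nickel 400 µM gave 10.30, 10.61, 11.20 and 11.06, with 2 arrays above and 1 below all controls, and the change of 0.087 (SE 0.124) was not called (adjusted p = 0.6 in limma). Over replicates 1 and 2 only, the chromium change was 0.70 (adjusted p = 0.00062 in limma) and the nickel change was -0.28 (adjusted p = 0.03 in limma), so the direction in nickel turned. The cadmium change there was 0.37 and its call was lost (adjusted p = 0.14).

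Txnrd1 encodes cytosolic thioredoxin reductase, the selenoenzyme that passes electrons from NADPH to thioredoxin. It was 12.61, 12.61, 12.41 and 12.11 in the Nickel 400 µM replicates, 12.11, 12.16, 12.01 and 12.06 in Chromium 10 µM and 11.89, 11.88, 11.94 and 11.78 in Cadmium 1.2 µM. The controls had a lowest, median and highest value of 11.17, 11.45 and 11.64. No array of the 3 high concentrations overlapped the controls, and 3 of the 4 nickel arrays lay above every chromium array. The log2 changes were 1.00 (SE 0.089) in nickel, 0.64 (SE 0.096) in chromium and 0.43 (SE 0.066) in cadmium, with adjusted p of 4.9e-06, 0.00014 and 0.00022 in limma. Txnrd1 rose already at the middle concentration of nickel (0.46, adjusted p = 0.016 in limma) and at both lower concentrations of cadmium (0.37 and 0.43, adjusted p = 0.029 and 0.0026). At Chromium 0.275 µM and 1 µM it changed by 0.42 and 0.445, with all 4 arrays of each above every control. Neither of these changes was called (adjusted p = 0.23 and 0.14 in limma). The second probe set changed by 0.97, 0.59 and 0.48 at the 3 high concentrations, each called, but was not called at these lower ones. The 2 probe sets correlated at r = 0.742 over the 44 arrays, which share controls and replicate numbers. Restricted to replicates 1 and 2, the changes were 1.02 in nickel and 0.54 in chromium, both called (adjusted p = 0.00011 and 0.002 in limma). In cadmium they were 0.30 and, for the second probe set, 0.42, and neither was called (adjusted p = 0.14 and 0.25).

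Srxn1 encodes sulfiredoxin, which restores over-oxidised peroxiredoxins. It was 11.01, 10.88, 10.72 and 10.69 in Chromium 10 µM and 10.76, 10.69, 10.60 and 10.47 in Cadmium 1.2 µM, against 9.737, 10.01 and 10.27 as the lowest, median and highest control. Neither group overlapped the controls. The log2 changes of 0.80 (SE 0.069) in chromium and 0.61 (SE 0.065) in cadmium were called in limma (adjusted p = 2e-06 and 1.5e-05). Nickel 400 µM gave 10.08, 10.21, 10.55 and 10.26, with only 1 array above all controls, and a change of 0.25 (SE 0.113) that was not called (adjusted p = 0.091 in limma). The second probe set gave 0.67, 0.56 and 0.13 for chromium, cadmium and nickel, with the same calls. The same fit on replicates 1 and 2 gave a chromium change of 0.77 (adjusted p = 0.00078 in limma) and a nickel change of -0.036 (adjusted p = 0.75). Its cadmium change was 0.55 for the first probe set, still called (adjusted p = 0.036 in limma), and 0.51 for the second, no longer called (adjusted p = 0.26).

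Prdx1 encodes peroxiredoxin 1, an abundant peroxidase that thioredoxin reduces. It was 13.15, 13.11, 13.09 and 13.18 in Chromium 10 µM, 13.12, 12.91, 13.18 and 13.20 in Cadmium 1.2 µM and 12.90, 12.88, 12.99 and 12.98 in Nickel 400 µM, against 12.81, 12.87 and 12.91 as the lowest, median and highest control. All 4 chromium arrays, 3 of 4 cadmium arrays and 2 of 4 nickel arrays lay above the controls. The changes were small, 0.27 (SE 0.062) in chromium, 0.24 (SE 0.061) in cadmium and 0.075 (SE 0.055) in nickel, and those in chromium and cadmium were called in limma (adjusted p = 0.003 and 0.007, against 0.3 in nickel). The cadmium call was lost without replicate 3 (adjusted p = 0.096 in limma) and without replicate 4 (0.068). In replicates 1 and 2 alone, the chromium change was 0.26 (adjusted p = 0.027 in limma), while the cadmium change was 0.14 and not called (adjusted p = 0.46).

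**Figure D2:**
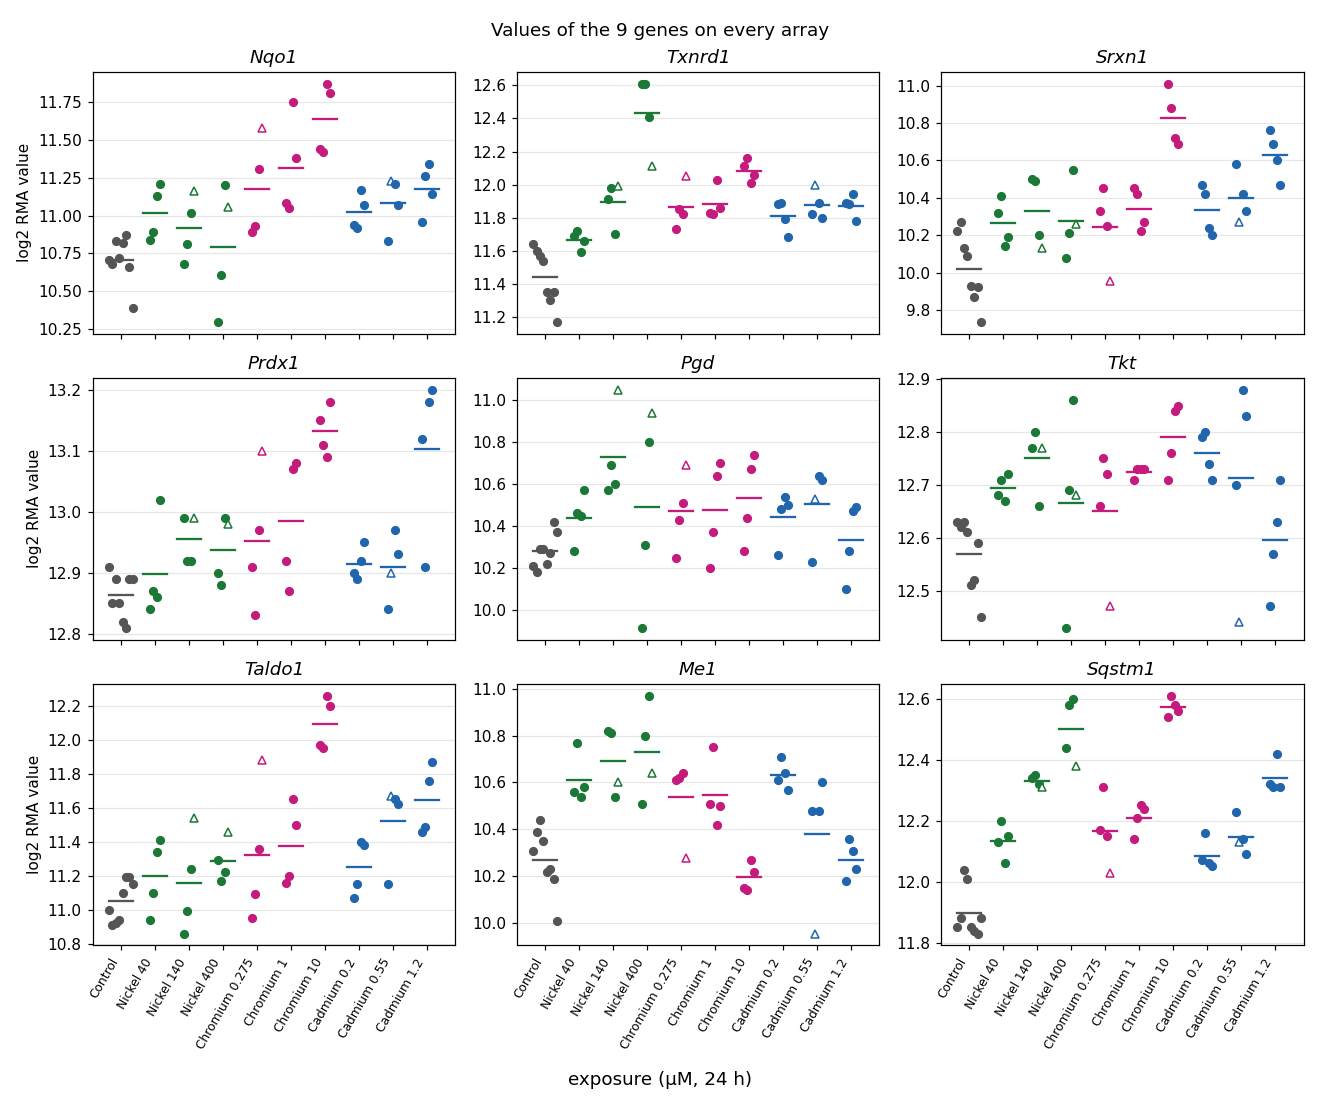
Each panel shows the log2 value of 1 gene (probe set of the highest mean) on every array, with the conditions across and a bar at the mean of each. Txnrd1 and Sqstm1 stand above the controls at the high concentration of all 3 metals, and Me1 does so at Nickel 400 µM but not at Chromium 10 µM or Cadmium 1.2 µM.

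Taldo1 encodes transaldolase of the non-oxidative pentose phosphate branch. It was 11.97, 11.95, 12.26 and 12.20 in Chromium 10 µM, against 10.91, 11.05 and 11.19 as the lowest, median and highest control, with no overlap. The means were 12.10 ± 0.159 (SD, n = 4) against 11.05 ± 0.121 (SD, n = 8), a log2 change of 1.05 (SE 0.104, adjusted p = 5.6e-06 in limma), or 2.06-fold. Cadmium 1.2 µM gave 11.46, 11.49, 11.76 and 11.87, all above the controls, with a change of 0.60 (SE 0.078, adjusted p = 6.9e-05 in limma), and Cadmium 0.55 µM a change of 0.48 (adjusted p = 0.0039). Nickel 400 µM gave 11.29, 11.17, 11.22 and 11.46, with 3 of 4 above the controls. Its change of 0.24 (SE 0.084) was only just called (adjusted p = 0.036 in limma), and the call was lost without replicate 1, 2 or 4 (adjusted p = 0.097, 0.15 and 0.068) and without the array of the lowest R2, Nickel 400 µM replicate 1 (0.13). In replicates 1 and 2 alone, the chromium change was 1.02 and the nickel change 0.29 (adjusted p = 0.00021 and 0.03 in limma). The cadmium change was 0.53 and lost its call (adjusted p = 0.085).

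Pgd encodes phosphogluconate dehydrogenase, an NADPH-producing step of the oxidative branch, and Tkt encodes transketolase of the non-oxidative branch. Pgd was 10.28, 10.44, 10.67 and 10.74 in Chromium 10 µM, against 10.18, 10.28 and 10.42 as the lowest, median and highest control, with 3 of 4 arrays above the controls. Its change of 0.25 (SE 0.069) was called (adjusted p = 0.0091 in limma), as was the change of 0.23 at Cadmium 0.55 µM (adjusted p = 0.035). At Nickel 140 µM Pgd was 10.57, 10.69, 10.60 and 11.05, above every control, yet the change of 0.45 missed the threshold (adjusted p = 0.071 in limma). At Cadmium 1.2 µM the change was 0.056 (SE 0.061, adjusted p = 0.49 in limma). Tkt was 12.71, 12.76, 12.84 and 12.85 in Chromium 10 µM, against 12.45, 12.60 and 12.63 as the lowest, median and highest control, without overlap. The Tkt change was 0.22 (SE 0.068, adjusted p = 0.017 in limma), and those in Nickel 400 µM and Cadmium 1.2 µM, 0.096 and 0.026, were not called. The chromium calls of both genes were lost without replicate 3 (adjusted p = 0.086 for Pgd and 0.12 for Tkt in limma) and were not made in replicates 1 and 2 alone (0.24 and 0.25).

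Of the 4 probe sets that Pgd shares with Cenps, Kif1b and Cort, 1 was below the filter. At Chromium 10 µM 1 of the others was called lower (-0.64, adjusted p = 0.0057 in limma) and 1 higher (0.79, adjusted p = 0.0015), and which gene they measure cannot be told from the annotation.

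Me1 encodes cytosolic malic enzyme, which makes NADPH from malate and is known in liver as a lipogenic enzyme. At the high concentration it was called higher in nickel alone. Its values were 10.51, 10.80, 10.97 and 10.64 in Nickel 400 µM, against 10.01, 10.27 and 10.44 as the lowest, median and highest control, with no overlap. The change was 0.46 (SE 0.094, adjusted p = 0.0018 in limma), and 0.43 at Nickel 140 µM (adjusted p = 0.027). Chromium 10 µM gave 10.15, 10.14, 10.27 and 10.22, and Cadmium 1.2 µM 10.18, 10.36, 10.31 and 10.23, all within the range of the controls. These changes were -0.073 (SE 0.085, adjusted p = 0.52 in limma) and 0.0013 (SE 0.118, adjusted p = 0.99). The second probe set had changes of 0.64, 0.022 and -0.034 at the 3 high concentrations, called in nickel alone. It also rose at Cadmium 0.2 µM and 0.55 µM (0.39 and 0.33, adjusted p = 0.0097 and 0.0041 in limma), where the first was not called. The second changed by 0.415 and 0.379 at Chromium 0.275 µM and 1 µM, with all 4 arrays of each above every control. Neither of these changes was called (adjusted p = 0.17 and 0.12 in limma). On replicates 1 and 2 the nickel change of the first was 0.28 (adjusted p = 0.04 in limma) and that of the second 0.32 (adjusted p = 0.017).

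Sqstm1 encodes p62, an autophagy receptor that binds KEAP1. It was 12.44, 12.58, 12.60 and 12.38 in Nickel 400 µM, 12.54, 12.61, 12.58 and 12.56 in Chromium 10 µM and 12.32, 12.31, 12.42 and 12.31 in Cadmium 1.2 µM. The controls had a lowest, median and highest value of 11.83, 11.87 and 12.04, below every one of these arrays. The changes were 0.60 (SE 0.061), 0.67 (SE 0.062) and 0.44 (SE 0.058) for nickel, chromium and cadmium, with adjusted p of 1.2e-05, 3.1e-06 and 6.8e-05 in limma. The second probe set had larger changes, 0.95, 1.10 and 0.98 (adjusted p = 2.3e-07, 6.3e-08 and 8e-08 in limma), which made it the only member past 1.8-fold in all 3 metals. Its values were 10.38, 10.63, 10.62 and 10.62 in nickel, 10.50, 10.64, 10.87 and 10.83 in chromium and 10.48, 10.37, 10.77 and 10.77 in cadmium, against 9.412 to 9.831 in the controls. Both probe sets rose at Nickel 140 µM (0.43 and 0.45, adjusted p = 0.0019 and 0.0011 in limma) and at Cadmium 0.55 µM (0.25 and 0.42, adjusted p = 0.018 and 0.0013). At Chromium 1 µM they changed by 0.31 and 0.29 and were not called (adjusted p = 0.11 and 0.14 in limma). In replicates 1 and 2 alone, the first changed by 0.56 in nickel and 0.63 in chromium, both called (adjusted p = 0.00093 and 0.00084 in limma). In cadmium the first changed by 0.37 and was not called (adjusted p = 0.087), while the second changed by 0.92 and was (adjusted p = 0.008).

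**Figure D3:**
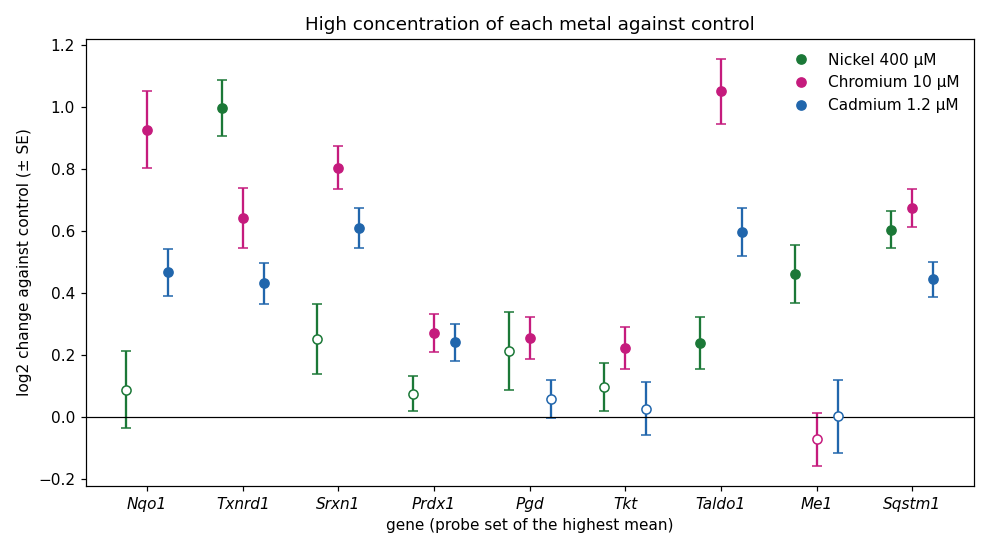
Points show the log2 change against control, with bars of 1 SE, for the 9 genes (probe set of the highest mean) at Nickel 400 µM, Chromium 10 µM and Cadmium 1.2 µM, filled where called. Txnrd1 and Me1 are highest in nickel, at 1.00 and 0.46, and Nqo1 and Taldo1 are highest in chromium, at 0.93 and 1.05.

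Replicates 3 and 4 differed from replicates 1 and 2 at Nickel 400 µM for part of the genes. The nickel arrays of replicates 3 and 4 both carry another condition under the labels as deposited. Against the control of the same replicate number, Nqo1 differed by -0.39, -0.16, 0.36 and 0.54 in replicates 1, 2, 3 and 4. Srxn1 differed by -0.17, 0.10, 0.65 and 0.43, and Pgd by -0.28, 0.03, 0.56 and 0.54. Me1 was above its control in all 4, by 0.16, 0.40, 0.74 and 0.55, but less so in replicates 1 and 2, where the fit gave 0.28 and, for the second probe set, 0.32, than in replicates 3 and 4, where it gave 0.64 and 0.96. By contrast Txnrd1 differed by 0.99, 1.06, 1.08 and 0.85, and Sqstm1 by 0.57, 0.56, 0.76 and 0.53, so these 2 were high in all 4. Fitted on replicates 3 and 4 alone, Nqo1, Srxn1 and Pgd changed by 0.45, 0.54 and 0.55 (adjusted p = 0.043, 0.013 and 0.014 in limma), and on replicates 1 and 2 alone by -0.28, -0.036 and -0.13 (adjusted p = 0.03, 0.75 and 0.29). These fits on pairs of replicates were chosen after the data were seen. The second Srxn1 probe set was called in neither fit, with 0.30 and -0.039 (adjusted p = 0.18 and 0.86 in limma). It differed from its control by -0.43, 0.36, 0.50 and 0.09 in replicates 1 to 4, so it did not share the split clearly. Replicate 4 of Nickel 400 µM is a repeated array with a median R2 of 0.9049. Replicate 1 of that exposure had the lowest likeness to its condition of all arrays (0.9026). Without the array of replicate 1, Srxn1 and Pgd changed by 0.37 and 0.36, both called (adjusted p = 0.013 and 0.016 in limma), while Nqo1 was still not called. One of the 2 control arrays of replicate 4 was also the lowest control for Nqo1 (10.39). Beyond that refit, the part of these arrays in the split was not tested.

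**Figure D4:**
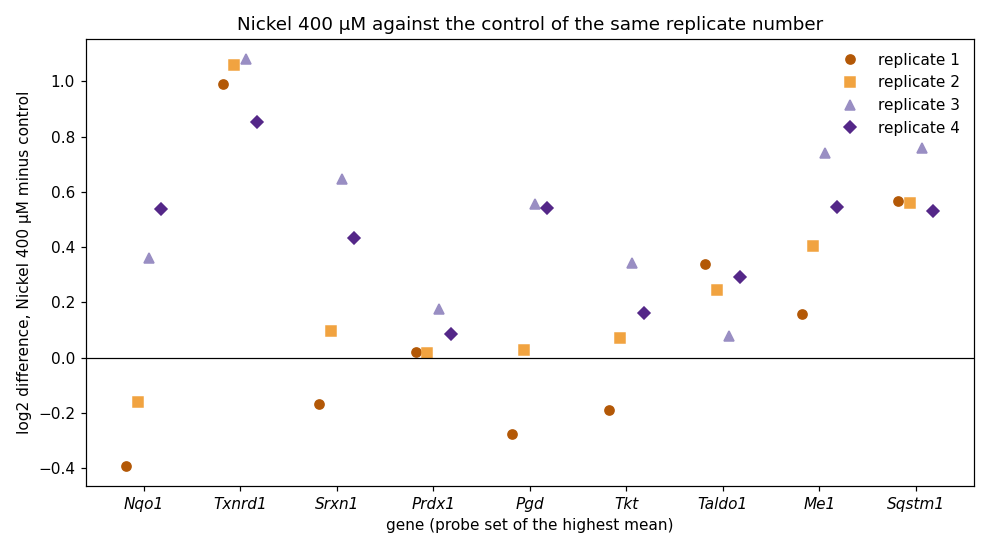
Points show the log2 difference between the Nickel 400 µM array and the mean control of the same replicate number, for the 9 genes and replicates 1 to 4. Nqo1, Srxn1 and Pgd lie below 0 in replicate 1 and above 0.3 in replicates 3 and 4, and Txnrd1 and Sqstm1 lie above 0.5 in all 4.

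The differences between metals at the high concentration were tested in 1 fit of all 10 conditions, and stand beside each other although the molarities differ. For Nickel 400 µM minus Chromium 10 µM, 4 of 13 member probe sets were called higher (those of Txnrd1 and Me1), against 23.0% of all, and 6 lower, against 21.8% of all. The log2 difference was -0.84 for Nqo1, -0.81 for Taldo1, -0.55 for Srxn1 and -0.20 for Prdx1 (adjusted p = 3e-07, 2e-08, 5.1e-06 and 0.0024 in limma). It was 0.35 for Txnrd1 and 0.54 for Me1 (adjusted p = 0.0011 and 0.00012 in limma). For Sqstm1 it was -0.07 (adjusted p = 0.3 in limma), and the second probe set gave -0.15 (adjusted p = 0.029).

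For Nickel 400 µM minus Cadmium 1.2 µM, 5 were called higher, against 20.3% of all, and 5 lower, against 24.8% of all. The log2 difference was 0.57 for Txnrd1 and 0.46 for Me1, and -0.38 for Nqo1, -0.36 for Srxn1 and -0.36 for Taldo1 (adjusted p = 3e-06, 0.00072, 0.0069, 0.0013 and 0.0024 in limma). It was 0.16 for Sqstm1 (adjusted p = 0.014 in limma) and -0.03 for its second probe set (adjusted p = 0.67). For Cadmium 1.2 µM minus Chromium 10 µM, 0 were called higher, against 24.3% of all, and 5 lower, against 19.2% of all. These were Nqo1 (-0.46), Taldo1 (-0.45), Sqstm1 (-0.23), Txnrd1 (-0.21) and Tkt (-0.20), with adjusted p of 0.0014, 0.00024, 0.00068, 0.048 and 0.041 in limma. Pgd differed between no pair by this test (adjusted p = 0.74, 0.17 and 0.078 in limma). With the labels as given, 2, 1 and 0 of the 13 were called in the 3 pairs, in this order. No count over all tested probe sets stands beside these, so they do not compare members with other probe sets.

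The regulators of the programme were listed as Nfe2l2, Keap1, Maff, Mafg, Mafk, Cul3 and Bach1, of which 6 were tested. At the high concentration 4 rose and 1 fell in nickel, 5 rose and 0 fell in chromium, and 2 rose and 1 fell in cadmium, with medians of 0.30, 0.31 and 0.096. This list and those below stand beside the shares of all tested probe sets called. These were 23.4% higher and 16.7% lower in nickel, 23.0% and 19.5% in chromium, and 23.8% and 14.0% in cadmium. Nfe2l2 averaged 11.36 ± 0.0168 in Nickel 400 µM, 12.15 ± 0.038 in Chromium 10 µM and 11.63 ± 0.073 in Cadmium 1.2 µM (SD, n = 4 each), against 11.84 ± 0.0649 in the controls (SD, n = 8). It fell by 0.47 in nickel and by 0.20 in cadmium and rose by 0.31 in chromium (adjusted p = 7.3e-05, 0.013 and 0.00043 in limma), while Txnrd1 and Sqstm1 were higher in all 3. Maff, a small MAF partner, rose by 1.69, 1.31 and 1.00 in nickel, chromium and cadmium (adjusted p = 1.4e-06, 3.5e-06 and 2.4e-05 in limma). Mafk, another small MAF, rose by 0.41, 0.31 and 0.74 (adjusted p = 0.0063, 0.0074 and 7.2e-05 in limma). Keap1 rose by 0.32 in nickel and 0.44 in chromium (adjusted p = 0.00081 and 0.00029 in limma), and its cadmium change of 0.12 was not called.

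Of 13 other thioredoxin, glutaredoxin and peroxiredoxin genes tested, 0 rose and 5 fell in Nickel 400 µM, 2 rose and 1 fell in Chromium 10 µM, and 6 rose and 1 fell in Cadmium 1.2 µM. Their median changes were -0.18, 0.016 and 0.13. Txn1, thioredoxin itself, rose by 0.55 in chromium and 0.33 in cadmium (adjusted p = 2e-04 and 0.01 in limma), with 0.11 in nickel (adjusted p = 0.2). Glrx, a glutaredoxin, fell by 0.89 in nickel (adjusted p = 0.00025 in limma). Prdx4, the peroxiredoxin of the endoplasmic reticulum, fell in all 3 metals, by 0.47, 0.24 and 0.38 (adjusted p = 0.00026, 0.022 and 0.00046 in limma).

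Of 11 other NADPH and pentose phosphate genes tested, 2 rose and 3 fell in nickel, 5 rose and 5 fell in chromium, and 2 rose and 2 fell in cadmium, with medians of -0.11, -0.24 and 0.064. H6pd, the hexose-6-phosphate dehydrogenase of the endoplasmic reticulum, rose by 0.69 in nickel (adjusted p = 3.9e-05 in limma) and fell by 0.38 in chromium (adjusted p = 0.0073). Prps1, which uses ribose 5-phosphate from the pathway, rose by 0.43 in nickel and 0.67 in chromium (adjusted p = 0.0041 and 0.00056 in limma). Nnt, the mitochondrial transhydrogenase, fell by 0.42, 0.64 and 0.56 in nickel, chromium and cadmium (adjusted p = 0.019, 2.9e-05 and 9e-06 in limma). Of the listed genes, Bach1, Txnip, Me3, Prps2, Gpx2 and Thrsp were below the filter, and Fth1, Ftl1, Nbr1, Map1lc3b and Gabarapl2 were not analysed here for want of a probe set that names them alone.

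Among 14 tested glutathione and heme targets of NRF2, 9 rose and 3 fell in nickel, 7 rose and 1 fell in chromium, and 7 rose and 0 fell in cadmium, with medians of 0.64, 0.42 and 0.33. Hmox1, heme oxygenase 1, rose by 2.78, 1.06 and 2.15 (adjusted p = 1.5e-07, 1.3e-06 and 3.4e-05 in limma), in nickel and cadmium a larger change than that of any of the 13 member probe sets. Gclm, the modifier subunit of glutamate-cysteine ligase, rose by 1.03 in nickel and 0.56 in chromium (adjusted p = 6.7e-06 and 0.00088 in limma), with 0.071 in cadmium (adjusted p = 0.68). Slc7a11, the cystine transporter, rose by 2.01 in nickel and 1.16 in chromium (adjusted p = 0.00098 and 5.4e-06 in limma), with 0.55 in cadmium (adjusted p = 0.057). Osgin1, an oxidative stress-induced growth inhibitor, rose by 0.70, 0.99 and 0.32 in nickel, chromium and cadmium (adjusted p = 6.7e-05, 4.5e-07 and 0.0033 in limma).

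Since malic enzyme also serves lipid synthesis, 11 fatty acid synthesis genes were set beside Me1. None rose at any high concentration, and 6 fell in nickel, 10 in chromium and 8 in cadmium, with medians of -0.42, -0.44 and -0.36. Fasn, fatty acid synthase, fell by 1.03 in Nickel 400 µM (adjusted p = 4.1e-06 in limma), where Me1 rose by 0.46. Scd, a stearoyl-CoA desaturase, fell by 0.70 in chromium and 0.76 in cadmium (adjusted p = 5.2e-06 and 3.5e-05 in limma). Of 10 autophagy genes set beside Sqstm1, 3 rose and 2 fell in nickel, 0 rose and 3 fell in chromium, and 3 rose and 0 fell in cadmium, with medians of 0.093, -0.22 and 0.18. Of all tested probe sets, 23.4% rose and 16.7% fell in nickel, 23.0% and 19.5% in chromium, and 23.8% and 14.0% in cadmium. Map1lc3a, of the LC3 family, fell by 0.57 in nickel and 0.22 in chromium (adjusted p = 0.00023 and 0.021 in limma). Gabarap fell by 0.42 in nickel and 0.25 in chromium (adjusted p = 0.0035 and 0.0034 in limma). Wipi1, an autophagosome scaffold, rose by 0.44 in nickel and 0.35 in cadmium (adjusted p = 0.0011 and 7e-04 in limma), and Atg7 fell by 0.56 in chromium (adjusted p = 4.9e-05).

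The patterns of the genes over the 10 condition means, which share controls and replicate numbers, were compared by Pearson's r as a description. Srxn1 was most like Taldo1 (r = 0.94) and Prdx1 (0.912) among the 9 genes, and Txnrd1 most like Sqstm1 (0.857). Pgd and Tkt had r = 0.735, and Me1 ran against Taldo1 (r = -0.614). Among about 12202 other genes' probe sets, the 5 most like Nqo1 were Cep76, Blmh, Cox10, Ddb2 and Rfc2 (r from 0.96 to 0.921). Those most like Txnrd1 were Chpf2, Slc40a1, Slc4a7, Lrp8 and Kctd15 (0.957 to 0.949), and those most like Sqstm1 were Zfp777, Tmem129, Vps4a, Lsg1 and Tbpl1 (0.968 to 0.95). For Srxn1 they were Nop9, Syngr2, Taldo1, Pfdn6 and Imp4 (0.96 to 0.938). The likeness was lower for Me1, led by Nus1 and Ncor1 (0.897 and 0.895), and for Pgd, led by Fbxo31 and Oaf (0.879 and 0.846).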

How the data were processed

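Labelled RNA of the H4-II-E-C3 line was measured on an Affymetrix whole-genome rat array, 44 arrays in all. The deposited log2 values were made by the authors with RMA (background adjustment, normalization and summarization) in Partek. Replicates are separate biological replicates per the labels. The number of arrays limits the precision.

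Conditions were given to the columns of the value table in the order described in the report, and 0 columns belonged to no sample. Probe sets that are not array controls and whose mean over the 44 arrays reached the median of such means (5.96 log2 units) were tested, 15521 in all, since detection calls were not used here. The 3 metals were fitted separately (limma 3.58.1, R 4.3.3), each with a term for concentration and a block for replicate number, and the 2 control arrays of a number were averaged, after the methods, which use dose and batch. That replicate number stands for batch is not stated. Deviations from condition means correlated at a median of 0.506 between samples of the same number (range -0.305 to 0.847) and -0.28 between others, and 36 of 40 correlated best with their own number. Deviations within a condition cancel out by construction, so the negative median follows in part from the positive one. P-values were adjusted by Benjamini-Hochberg over all tested probe sets.

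The members and gene lists were chosen with earlier results of these data known. Where a gene had several probe sets, that of the highest mean was described first. From each list, up to 4 genes with the largest called change at a high concentration could be named, and for 6 genes the 5 most alike were found. In a simulation of Nickel 400 µM on 15521 probe sets, 65% of changes of 0.5 and 95% of changes of 1 log2 unit were recovered, of 100 each, with 2 false calls. The simulated noise held no replicate effect, and only 200 probe sets were changed. In the data, 23.4% of all probe sets were called higher and 16.7% lower at that exposure. The simulated rates therefore do not give the sensitivity of the reported fits.

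Alternatives were the labels as given, replicates 1 and 2 only, no replicate block, other uses of the controls, other filters, 1 fit for all conditions, centred arrays, leaving out the repeated arrays or each replicate, and an ordinary variance. Of the probe sets that are not array controls, 20826 name 1 gene, 436 several and 9780 none.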

Additional observations from a re-analysis of the deposited data

Results flagged for a closer look

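Of 130 groups of arrays examined for the 13 probe sets, 8 held an array far from the others, where chance gives about 1 in 20 groups. The measure is the gap to the nearest other array as a share of the range of the group. Of the 8, 2 were repeated arrays. In Txnrd1 (second probe set), the repeated array of Cadmium 0.55 µM replicate 2 was lowest at 10.84, next to 11.43 (share 0.954), and in Me1 the repeated array of Chromium 0.275 µM replicate 4 was lowest at 10.28, next to 10.61 (share 0.929). In Sqstm1 (second probe set), Nickel 400 µM replicate 1, the array of the lowest R2, was lowest at 10.38, next to 10.62 (share 0.973).

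In Taldo1, Cadmium 0.55 µM replicate 1 was lowest at 11.15, next to 11.62 (share 0.903). In Tkt, Chromium 1 µM replicate 1 was lowest at 12.71, next to 12.73 (share 0.864). In Prdx1, Nickel 40 µM replicate 4 was highest at 13.02, next to 12.87 (share 0.86). In Sqstm1, Cadmium 1.2 µM replicate 3 was highest at 12.42, next to 12.32 (share 0.858). In Nqo1, a control array of replicate 4 was lowest at 10.39, next to 10.66 (share 0.565, among 8 controls). No explanation was tested for any of them.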

How the results depend on the processing

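Counts of called members, of 13, were recomputed under each alternative, and of 219 such counts 166 stayed within 1.5 times the value in the report and 53 did not. For most alternatives the count over all tested probe sets is not printed. Such member counts do not show whether members moved more than other probe sets. The same holds for alternatives named earlier in the report, save where a count over all stands beside them. The reported counts were 5 at Nickel 140 µM, 7 at Nickel 400 µM, 0 at Chromium 0.275 µM and 1 µM, 11 at Chromium 10 µM, and 2, 8 and 9 at the rising concentrations of cadmium. They were 10 for Nickel 400 µM minus Chromium 10 µM, 10 for Nickel 400 µM minus Cadmium 1.2 µM and 5 for Cadmium 1.2 µM minus Chromium 10 µM.

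With the labels as given, the counts were 0 at Nickel 140 µM, Nickel 400 µM, Chromium 10 µM and all 3 cadmium exposures, and 2, 1 and 0 for the 3 differences. With the labels as given and replicates 1 and 2 only, they were 2 at Nickel 140 µM, 0 at the 3 cadmium exposures and 6 for nickel minus cadmium, and Nqo1 at Nickel 400 µM reversed to -0.28. Without the replicate block they were 2 at Nickel 140 µM, 0 at Cadmium 0.2 µM, 2 at Cadmium 0.55 µM and 3 for cadmium minus chromium, and Taldo1 in Nickel 400 µM and Pgd in Chromium 10 µM lost their calls (adjusted p = 0.22 and 0.15 in limma). Counting the 8 control arrays singly gave 8 at Nickel 140 µM, 4 and 6 at Chromium 0.275 and 1 µM, and 6 at Cadmium 0.2 µM. That setting treats the 2 control arrays of a replicate number as separate samples. All conditions in 1 fit gave 4 at Chromium 1 µM, and leaving out the 4 repeated arrays gave 7 there and 8 at Cadmium 0.2 µM. Cadmium minus chromium gave 3 with no filter and 8 with arrays centred on their median. An ordinary variance gave 3 at Nickel 140 µM and 1 at Cadmium 0.2 µM. Without each replicate in turn the ranges were 2 to 3 at Nickel 140 µM, 0 to 6 at Cadmium 0.2 µM, 1 (without replicate 3) to 10 at Cadmium 0.55 µM, 6 to 8 for nickel minus cadmium and 3 to 3 for cadmium minus chromium.

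Chosen after the data were seen were replicates 1 and 2 alone in the order of the report, which gave 2 at Nickel 140 µM, 0, 0 and 2 at the 3 cadmium exposures, 5 for nickel minus cadmium and the same -0.28 for Nqo1, and replicates 3 and 4 alone, which gave 0 at Nickel 140 µM, 6 at Cadmium 0.2 µM, 5 for nickel minus cadmium and 2 for cadmium minus chromium. Leaving out Nickel 400 µM replicate 1 was added likewise. The cause of these shifts was not tested. Replicates 1 and 2, or 3 and 4, leave few samples to estimate the spread. At Nickel 140 µM, Chromium 0.275 µM, Chromium 1 µM and Cadmium 0.2 µM the count was higher when the control arrays were counted singly.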
